A study of Mus musculus with 24 samples.

Results

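The 10 genes described here are markers by which stromal progenitors and preadipocytes of fat tissue are recognised: Pdgfra, Pdgfrb, Ly6a, Cd34, Thy1, Eng, Ncam1, Dpp4, Pi16 and Zfp423. They were taken by symbol from the 52089 gene symbols of the deposited table, not by how they changed, and for each symbol the RefSeq entry with the highest mean level over the 24 libraries was followed. All 10 were found in the table. Of these, 8 had enough reads to be tested between knockdown and control and 7 to be tested over time in control cells, while Dpp4 and Pi16 lay close to 0 throughout.

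The libraries came from primary preadipocytes of the stromal-vascular fraction of inguinal white fat of 129SvEv mice, which in all 4 groups had received an adipogenic induction of 2 days, begun at sub-confluence per the labels, and then 1 day of differentiation with rosiglitazone, a PPARγ agonist that promotes browning. The cells were then reverse transfected with a gapmer at 50 nM, a chimeric oligonucleotide with locked bases that triggers cleavage of the RNA it pairs with. In the KD groups it targeted Ctcflos, a long noncoding RNA, and in the NC groups it was a nontargeting control. RNA was collected 24 h or 72 h after transfection, giving groups named KD or NC and 24 h or 72 h, with 6 libraries each. Such cultures as a rule hold differentiating adipocytes together with cells that stay stromal, and no undifferentiated group is described here, so the levels below are those of a mixed culture.

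Stromal cells of fat are a hierarchy. Interstitial progenitors that carry Dpp4 and Pi16 give rise to committed preadipocytes, most of these cells express the platelet-derived growth factor receptors together with the surface proteins Sca-1 (Ly6a), CD34 and CD90 (Thy1), and the zinc finger factor Zfp423 marks and promotes commitment to the fat lineage. During fat cell formation, the progenitor surface genes are in general turned down as the genes of lipid storage are turned on.

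Levels are given as RPKM, that is, reads scaled by the length of the transcript in kilobases and by the mapped reads of the library. Libraries held 1391832 to 5926375 mapped reads, at a median of 4009998. Since NC 72 h replicates 2 and 3 differed by less than the sampling noise, they were averaged and counted once, which left n = 5 in NC 72 h. The targeted RNA, listed as 1300015D01Rik, was at 0 to 0.62 RPKM in KD 24 h against 0.178 to 1.38 in NC 24 h, and at 0 to 0.517 in KD 72 h against 0.886 to 1.75 in NC 72 h (two-sided exact permutation test, p = 0.045 and 0.0043, adjusted over both 0.045 and 0.0087). The groups thus overlapped at 24 h and did not at 72 h. Libraries were also divided by their deviations from the group means into a set number of 2 blocks, called the larger cluster (16 libraries) and the smaller cluster (8). The split was weak, since deviations of libraries from different groups correlated at a mean r of 0.09 within clusters and -0.11 between clusters. The smaller cluster held KD 24 h replicates 3 and 4, NC 24 h replicates 5 and 6, KD 72 h replicates 5 and 6, and NC 72 h replicates 4 and 5. The labels give no batch for this split, and several of the markers moved with it, so values within each cluster are given beside the results they bear on. The clusters were drawn from these same libraries, so fits within a cluster can understate the spread and are given as description.

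The cultures were rich in adipocyte transcripts and poor in those of other lineages. Fabp4, the lipid chaperone of adipocytes, averaged 36825 RPKM over the 24 libraries and Adipoq (adiponectin) 1826 RPKM. By contrast, the 6 endothelial markers summed to at most 3.31 RPKM in any library, with Tie1 above 0 in 4 and Kdr in 9 of the 24 libraries. Of the Schwann cell markers Erbb3 was at 0 in all libraries and Sox10 was above 0 in 3. The leukocyte marker Ptprc was above 0 in 8 libraries at up to 0.319 RPKM. In RNA of whole cultures, fewer cells of a type and less RNA per cell cannot be told apart.

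**Figure D1:**
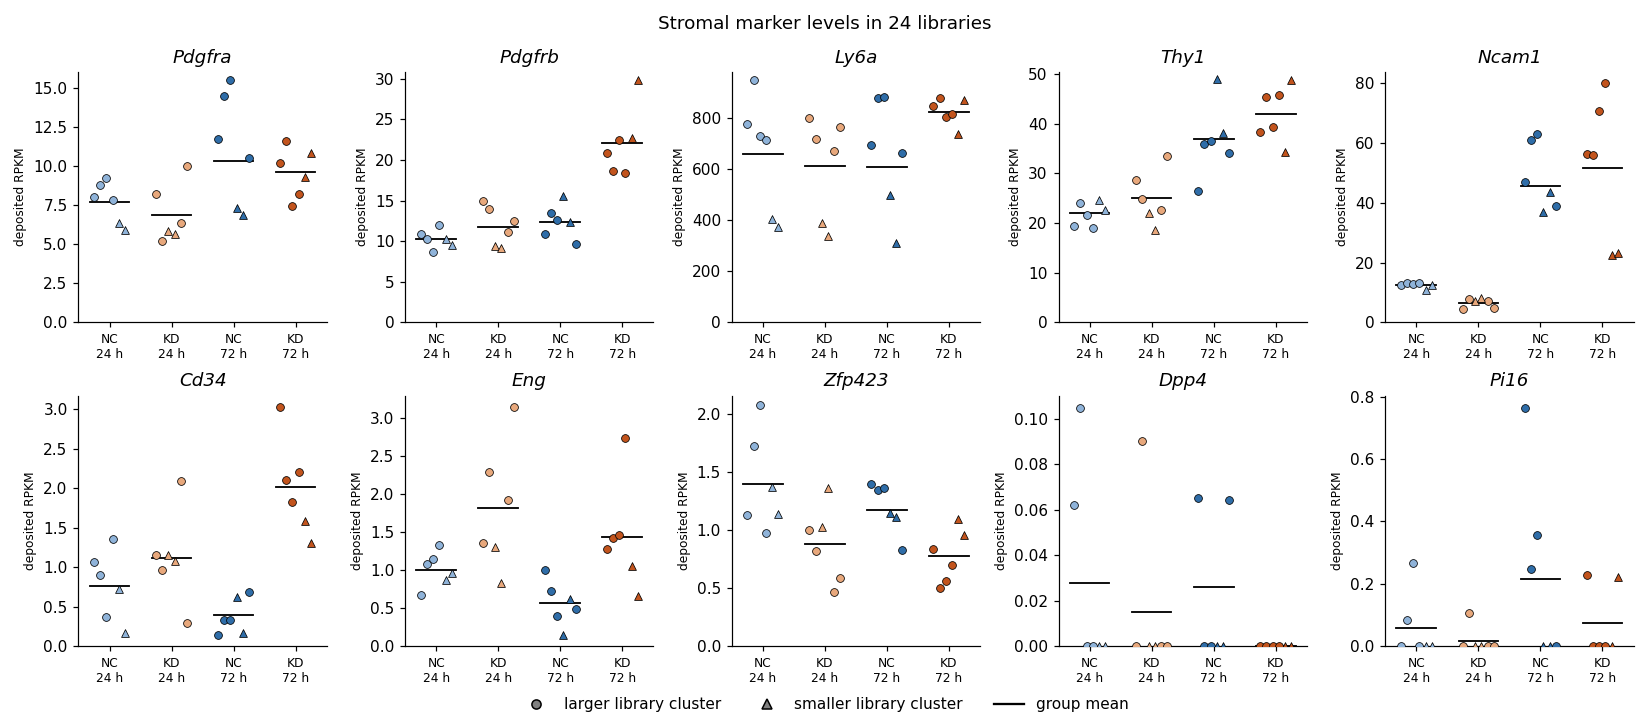
Deposited RPKM of the 10 markers in each library (points; circles for the larger and triangles for the smaller library cluster) with the group mean (line, NC 72 h replicates 2 and 3 entering as 1 sample); each y axis starts at 0. Pdgfrb and Cd34 of KD 72 h lie above every NC 72 h library, Ncam1 of KD 24 h lies below every NC 24 h library, and Dpp4 does not exceed 0.105 RPKM.

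The markers differed widely in level per length. Ly6a led with a mean of 688 RPKM over the libraries, followed by Thy1 (31.4), Ncam1 (29.8), Pdgfrb (14.2) and Pdgfra (8.81). Eng (1.2), Cd34 (1.07) and Zfp423 (1.06) were close together, and the ranges of neighbouring genes in this order overlapped at all but 2 places. The lowest library of Ly6a (312 RPKM) was above the highest of Thy1 (48.9 RPKM), and the lowest of Pdgfra (5.19 RPKM) was above the highest of Eng (3.14 RPKM). Pi16 (0.0948) and Dpp4 (0.0161) came last. Reads came from the 3′ end and need not grow with transcript length, so division by length lowers long transcripts in this order. By mean reads per library Thy1 (219) came after Ncam1 (735), Pdgfrb (306) and Pdgfra (229). Reads behind these values averaged 2258 per library for Ly6a but 10.8 for Cd34, 16 for Eng and 21.5 for Zfp423, so the last 3 carry a large counting error.

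In control cells between 24 h and 72 h, Ncam1 and Thy1 rose and none of the tested markers was called lower. Ncam1 rose 3.65-fold and Thy1 1.68-fold, whereas Ly6a, Pdgfra, Pdgfrb, Eng and Zfp423 did not pass the test. Thus 2 of 7 tested markers were called higher by limma and 0 lower (1 without adjustment). Among all 52833 entries tested, 4.63% were called higher and 4.49% lower. The median log2 difference was 0.27 over the tested markers and 0.01 over all entries. Calls here and below are adjusted p-values under 0.05 from limma with Benjamini-Hochberg correction over all entries, and differences are on the log2(RPKM + 0.1) scale after scaling between libraries. Whether the ranges of 2 groups overlap is given as description. The share of all entries whose groups do not overlap was not computed.

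Ncam1 (NM_001081445, chr9:49502136-49798925 on the minus strand in GENCODE M21, GRCm38) encodes CD56, a homophilic adhesion molecule of the immunoglobulin superfamily. In NC 24 h the lowest, median and highest libraries had 10.8, 12.6 and 13.3 RPKM. In NC 72 h the samples had 47.1, 62, 36.8, 43.7 and 39 RPKM, all above every NC 24 h library. The difference was 1.87 on the log2 scale (SE 0.13, adjusted p = 4.0e-06), and it was 1.95 within the larger and 1.76 within the smaller cluster.

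Thy1 (NM_009382, chr9:44043384-44048579, plus strand) encodes CD90, a GPI-anchored glycoprotein carried by mesenchymal cells. It had 19, 22.2 and 24.7 RPKM as lowest, median and highest value in NC 24 h. The NC 72 h samples, at 26.4, 36.1, 48.9, 38.2 and 34.1 RPKM, did not overlap them. The log2 difference was 0.75 (SE 0.14, adjusted p = 0.0029), with 0.65 within the larger and 0.85 within the smaller cluster. Both Ncam1 and Thy1 kept their calls when any single library was left out, with adjusted p-values of at most 5.5e-05 and 0.0097.

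For the other markers the control times overlapped. Pdgfra differed by 0.40 (SE 0.21, adjusted p = 0.27), Pdgfrb by 0.27 (SE 0.14, adjusted p = 0.28) and Zfp423 by -0.20 (SE 0.24, adjusted p = 0.7). Eng was lower at 72 h by value only, with a log2 difference of -0.84 (SE 0.34, adjusted p = 0.16). Cd34 had too few control reads for the fit, 48 in NC 24 h and 25 in NC 72 h, with means of 0.761 ± 0.442 (SD, n = 6) and 0.39 ± 0.253 RPKM (SD, n = 5), which did not differ beyond the spread (exact permutation test, p = 0.12, adjusted p = 0.8 over 7 such comparisons). At this depth a fall of Cd34 in control cells was not detectable.

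Ly6a showed no difference over time in controls (log2 difference -0.09, SE 0.27, adjusted p = 0.89), but it divided the libraries by cluster. Ly6a (NM_010738, chr15:74994877-74998031, minus strand) encodes Sca-1, the GPI-anchored antigen used to sort mouse fat progenitors. In NC 24 h the 2 libraries of the smaller cluster had 405 and 372 RPKM and the other 4 had 715 to 949. KD 24 h showed the same split, with 390 and 339 against 672 to 799 RPKM, and so did NC 72 h, with 497 and 312 against 663 to 881. In KD 72 h this gap was missing, since its smaller-cluster libraries had 737 and 869 RPKM and the others 803 to 877. Because the clusters were drawn from the same libraries, these are descriptions and carry no test.

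At 24 h after transfection Ncam1 was the only called marker, at 0.496 of its control level. Thus 0 of 8 tested markers were called higher by limma (1 without adjustment), against 11.1% of the 52003 entries, and 1 was called lower, against 11.6%. The median log2 difference was -0.01 over the markers and over all entries alike. This comparison shares its NC 24 h libraries with the control time course.

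Ncam1 had 4.41, 7.12 and 8.13 RPKM as lowest, median and highest value in KD 24 h. In NC 24 h no library was below 10.8 RPKM, so the groups did not overlap. The difference was -1.01 on the log2 scale (SE 0.19, adjusted p = 0.0029), and it held without any single library. It was -1.24 within the larger cluster and -0.59 within the smaller cluster of 2 against 2 libraries (adjusted p = 0.15).

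Zfp423 (NM_033327, chr8:87661810-87959595, minus strand) had 0.462, 0.911 and 1.36 RPKM as lowest, median and highest value in KD 24 h and 0.975, 1.25 and 2.08 in NC 24 h. The log2 difference was -0.70 (SE 0.29, adjusted p = 0.092) and did not pass the test. It passed without KD 24 h replicate 4 (-0.85, adjusted p = 0.043) and in a fit over all 4 groups (adjusted p = 0.038), and it was -1.04 (adjusted p = 0.055) within the larger against -0.05 (adjusted p = 0.96) within the smaller cluster. Eng had 0.834, 1.64 and 3.14 RPKM in KD 24 h and 0.667, 1.02 and 1.33 in NC 24 h, with a log2 difference of 0.65 (SE 0.28, adjusted p = 0.11) that likewise passed only without KD 24 h replicate 4 (0.81, adjusted p = 0.04). Within clusters Eng differed by 0.86 (adjusted p = 0.085) and 0.19 (adjusted p = 0.84). The other markers differed by -0.24 (Pdgfra), -0.15 (Ly6a), 0.12 (Thy1), 0.13 (Pdgfrb) and 0.50 (Cd34), with SEs of 0.13 to 0.46 and adjusted p-values of 0.34 or more. The value of Cd34 was 0.04 (adjusted p = 0.96) in the larger and 1.39 (adjusted p = 0.21) in the smaller cluster.

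**Figure D2:**
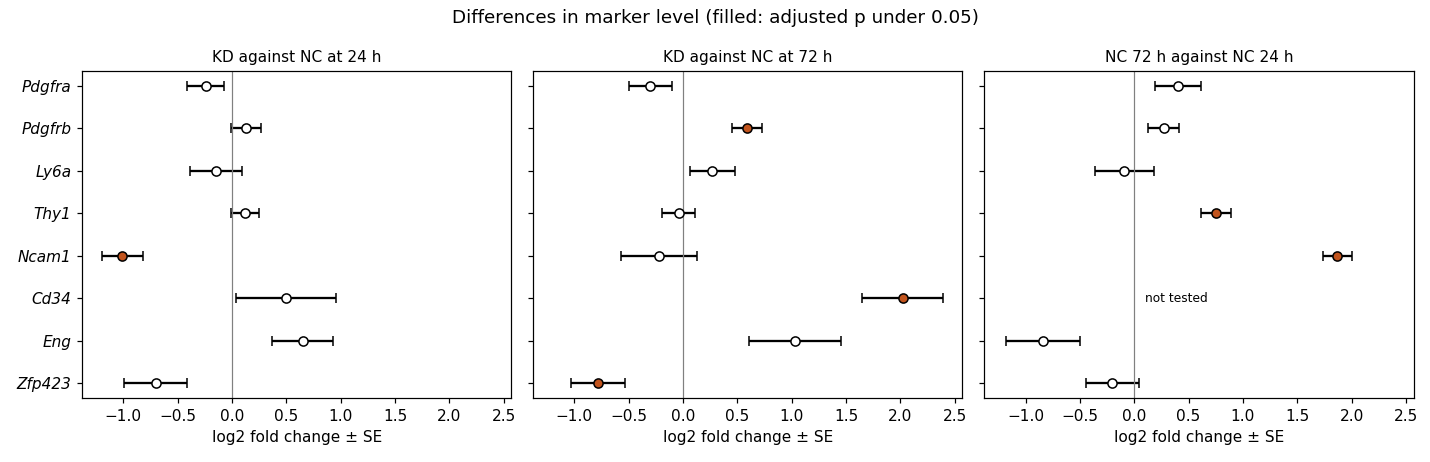
Log2 fold change with its standard error for the 8 markers with a fit, in 3 comparisons; filled points have an adjusted p-value under 0.05. Ncam1 is lower at -1.01 in KD at 24 h, Cd34 is higher at 2.02 and Pdgfrb at 0.59 in KD at 72 h, and Ncam1 is higher at 1.87 over time in controls.

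At 72 h the knockdown cells had higher Cd34 and Pdgfrb and lower Zfp423 than the controls. Cd34 was 4.05-fold and Pdgfrb 1.51-fold higher, and Zfp423 was at 0.581 of control. Of 8 tested markers 2 were called higher and 1 lower, while 10.3% of the 54444 entries were called higher and 12.0% lower. The median log2 difference was 0.12 over the markers and 0.01 over all entries. Without scaling between libraries the median of all entries shifted to 0.25 and 80.9% of calls were higher in KD, against 46.2% with scaling. On that deposited scale Cd34 (2.23) and Pdgfrb (0.84) were still called and Zfp423 (-0.56, adjusted p = 0.13) was not. Eng (1.24, adjusted p = 0.028) was called there, but it had the reads to be tested mainly through the KD libraries, where it was high.

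Cd34 (NM_133654, chr1:194938819-194961279, plus strand) encodes a sialomucin of progenitor and endothelial cells. KD 72 h had 1.31, 1.97 and 3.03 RPKM as lowest, median and highest value. The NC 72 h samples had 0.14, 0.331, 0.624, 0.17 and 0.685 RPKM, all below the lowest KD 72 h library. These values rest on 13 to 29 reads per library in KD 72 h and 1 to 10 in NC 72 h. Cd34 thus passed the read filter through the KD libraries, the group in which it was high, and a fit with no filter gave 2.03 (SE 0.43, adjusted p = 0.0092). With the filter the log2 difference was 2.02 (SE 0.37, adjusted p = 0.0015), and leaving out single libraries gave 1.80 to 2.24 with adjusted p-values of at most 0.005. Within clusters it was 2.27 in the larger and 1.52 (adjusted p = 0.15) in the smaller. The endothelial markers, which accompany CD34 in vessels, summed to 0.45 to 3.31 RPKM in KD 72 h and 1.36 to 2.13 in NC 72 h, and 0 of 6 had the reads to be tested.

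Pdgfrb (NM_008809) encodes the receptor for the B and D chains of platelet-derived growth factor, expressed by pericytes and fat progenitors. KD 72 h had 18.4, 21.6 and 29.8 RPKM as lowest, median and highest value. The NC 72 h samples had 10.9, 13, 15.6, 12.4 and 9.61 RPKM and did not overlap them. The log2 difference was 0.59 (SE 0.14, adjusted p = 0.0077), and adjusted p-values were at most 0.022 when single libraries were left out. It was 0.64 within the larger and 0.57 (adjusted p = 0.12) within the smaller cluster, and 0.57 (adjusted p = 0.058) with the replicate block, so that the call was lost in the last 2. At 24 h the same gene differed by 0.13, and the change of the knockdown difference between times did not pass the test (0.48, SE 0.19, adjusted p = 0.32). The mural cell markers, of cells that also carry this receptor, summed to 4.32 to 5.99 RPKM in KD 72 h and 3.63 to 8.26 in NC 72 h, and 0 of 2 tested were called.

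Its sister receptor Pdgfra (NM_011058, chr5:75152292-75198215, plus strand), which binds the A and C chains as well and marks nearly all fat stromal progenitors, was not called. KD 72 h had 7.45, 9.75 and 11.6 RPKM as lowest, median and highest value and the NC 72 h samples had 11.7, 15, 7.32, 6.85 and 10.5. The groups overlapped, at a log2 difference of -0.30 (SE 0.20, adjusted p = 0.32). The clusters differed in sign, with -0.62 in the larger and 0.17 in the smaller. Among the ligands, Pdgfa was called higher at 24 h (0.83, SE 0.28, adjusted p = 0.044) and had 0.85 at 72 h (SE 0.29, adjusted p = 0.052). Pdgfc was not called at either time, and Pdgfb and Pdgfd were too low to test.

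Zfp423 in KD 72 h had 0.498, 0.771 and 1.1 RPKM as lowest, median and highest value. The NC 72 h samples had 1.4, 1.36, 1.15, 1.11 and 0.825 RPKM. The ranges overlapped, since NC 72 h replicate 6 at 0.825 lay below 3 of the KD libraries. The log2 difference of -0.78 (SE 0.25, adjusted p = 0.037) rested on 8 to 19 reads per library in KD 72 h and 20 to 26 in NC 72 h. The call was lost in 8 of 11 fits without 1 sample, at adjusted p-values of up to 0.088 (without NC 72 h replicates 2 and 3) and log2 differences of -0.89 to -0.69. It was also lost without the read filter (adjusted p = 0.21), with the replicate block (-0.72, adjusted p = 0.14) and within each cluster, at -0.96 (adjusted p = 0.075) in the larger and -0.43 (adjusted p = 0.61) in the smaller. In the other entry of the gene, AK133497, the values were -0.66 at 72 h (adjusted p = 0.17) and -1.20 at 24 h (adjusted p = 0.038). The lower value in KD was thus present in every setting at 72 h, but its call was not.

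The 250 bases upstream of the RefSeq start are shown for Cd34 and Zfp423, the markers called in opposite directions at 72 h, from the RefSeq promoter table on GRCm38.p6. Capitals mark GC boxes (GGGCGG, or CCGCCC on the other strand).

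Cd34, chr1:194938571-194938820, plus strand: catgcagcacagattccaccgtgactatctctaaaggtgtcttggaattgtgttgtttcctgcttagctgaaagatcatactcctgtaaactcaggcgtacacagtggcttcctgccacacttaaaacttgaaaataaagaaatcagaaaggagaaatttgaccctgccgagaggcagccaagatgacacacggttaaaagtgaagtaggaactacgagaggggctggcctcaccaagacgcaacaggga

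Zfp423, chr8:87959596-87959845, minus strand: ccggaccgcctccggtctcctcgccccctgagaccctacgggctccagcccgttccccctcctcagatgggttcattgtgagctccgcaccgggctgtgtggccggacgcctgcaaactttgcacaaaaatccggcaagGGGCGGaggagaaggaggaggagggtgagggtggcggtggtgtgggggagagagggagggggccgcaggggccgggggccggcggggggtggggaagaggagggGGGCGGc

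The Zfp423 window was 71.6% G and C and held 2 GC boxes, whereas the Cd34 window was 46.4% G and C and held 0. The median over all 32851 windows of this length was 52.4%, and 32.7% of them held a GC box. Neither window held a TATA box (TATAAA or TTTATA, in 12.4% of windows) or a CCAAT box (CCAAT or ATTGG, in 33.8%). An E-box (CANNTG, in 66.2% of windows) occurred once upstream of Zfp423 and not upstream of Cd34. The promoter table held a second Zfp423 start, not shown, with its window at chr8:87804440-87804689. That window was 64.8% G and C and held 1 GC box and 3 E-boxes. The promoter table also held Pdgfra, Eng, Dpp4 and Pi16, and Pdgfrb, Ly6a, Thy1 and Ncam1 were not matched in it.

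Eng (NM_001146348, chr2:32646595-32682669, plus strand) encodes endoglin, or CD105, a coreceptor for ligands of the TGF-beta family. KD 72 h had 0.652, 1.35 and 2.73 RPKM as lowest, median and highest value, and the NC 72 h samples had 1, 0.557, 0.15, 0.611 and 0.492. The groups overlapped through KD 72 h replicate 6, whose 0.652 RPKM lay below the highest control sample, and the other KD libraries lay above all controls. The log2 difference was 1.03 (SE 0.42, adjusted p = 0.093) and passed the test without KD 72 h replicate 6 (1.23, adjusted p = 0.043). These values rest on 9 to 38 reads per library in KD 72 h and 2 to 10 in NC 72 h. At 72 h Eng thus passed the read filter mainly through the KD libraries, the group in which it was high. The fit without KD 72 h replicate 6 has the same limit. Among 7 receptors that act with endoglin, Tgfbr3 (betaglycan) was called lower at both times, at -1.74 (SE 0.32, adjusted p = 0.0025) at 24 h and -0.86 (SE 0.12, adjusted p = 2.3e-04) at 72 h, and 0 others were called. Of these receptors 6 were tested at 24 h and 7 at 72 h. Over all entries 11.6% were called lower at 24 h and 12.0% at 72 h. The Eng locus overlaps Fpgs on the other strand, and 2.2% of the 50-base words in its last 600 bases also occur in Fpgs.

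Thy1 at 72 h had 34.3, 42.3 and 48.8 RPKM as lowest, median and highest value in KD, within the 26.4 to 48.9 RPKM of NC. Its log2 difference was -0.04 (SE 0.15, adjusted p = 0.88) with scaling and 0.21 (adjusted p = 0.3) without, so that its sign depended on the scale, and it was 0.19 within the larger and -0.41 within the smaller cluster. Ly6a had 737, 833 and 877 RPKM in KD 72 h and 696, 881, 497, 312 and 663 in NC 72 h. The log2 difference of Ly6a was 0.27 (SE 0.21, adjusted p = 0.38), made of -0.04 in the larger cluster and 0.69 in the smaller.

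Ncam1 at 72 h split the knockdown libraries. KD 72 h replicates 1 to 4 had 56.5, 56.2, 70.8 and 80.1 RPKM, while replicates 5 and 6, both of the smaller cluster, had 22.7 and 23.1. The former overlapped the NC 72 h range of 36.8 to 62 RPKM, and the latter lay below it. The pooled log2 difference was therefore small, -0.22 (SE 0.35, adjusted p = 0.7) with scaling and 0.03 without. It was 0.22 in the larger against -1.13 in the smaller cluster. S100b, the only one of the 4 Schwann cell markers with enough reads to test, was lower in KD at 24 h (-0.88, SE 0.20, adjusted p = 0.0073) and at 72 h (-1.74, SE 0.35, adjusted p = 0.0028), and the 4 Schwann markers summed to 1.22 to 4.74 RPKM in KD 72 h and 3.99 to 9.45 in NC 72 h. The part of such cells in the Ncam1 values was not tested, while Sox10 and Erbb3 were at or near 0.

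This gap differed between entries of the gene. In GENCODE M21 the full transcript ends with an exon of 3428 bases (chr9:49502136-49505563), whereas ENSMUST00000166811 ends 2912 bases earlier in that exon and has all but 3 of its 3088 bases in common with the full form. The deposited entry of that name was 3629 bases long by its read steps, so its exact end in the annotation used by the authors is not known. Reads of this shorter entry were 111, 113, 112 and 141 in KD 72 h replicates 1 to 4 and 80 and 178 in replicates 5 and 6, so that the latter held both the fewest and the most. Reads of the full entry were 1359, 1140, 1752 and 2016 in replicates 1 to 4 and 469 and 577 in replicates 5 and 6. The shorter entry had 6.39% to 9.91% as many reads as the full one in replicates 1 to 4, and 17.1% and 30.8% in replicates 5 and 6. In NC 72 h this percentage was 8.22 to 16.2, and it was 4.24 to 15.6 in NC 24 h and 10.7 to 16 in KD 24 h. The shorter entry rose over time in controls by 2.06 (adjusted p = 2.0e-04), and its knockdown differences were -0.62 (adjusted p = 0.13) at 24 h and -0.23 (adjusted p = 0.34) at 72 h. How reads were shared between overlapping entries is not given in the sources used here.

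**Figure D3:**
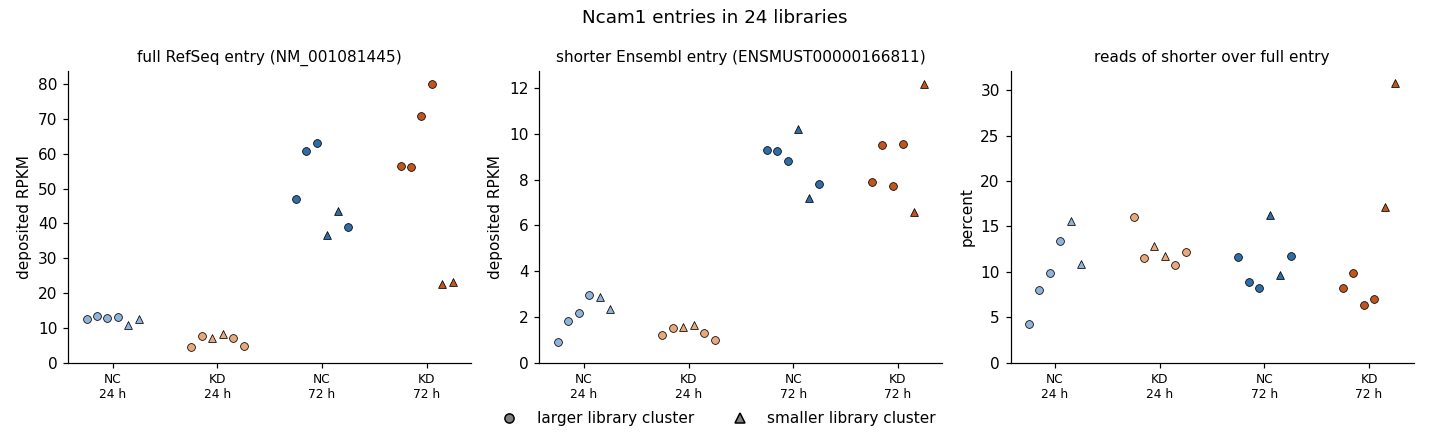
Deposited RPKM of the full Ncam1 entry, RPKM of the shorter Ensembl entry, and reads of the second as a percentage of reads of the first, in each library (circles, larger cluster; triangles, smaller cluster). KD 72 h replicates 5 and 6 are low at 22.7 and 23.1 RPKM in the full entry, lie on both sides of the group at 6.6 and 12.2 RPKM in the second entry, and stand highest in percentage of all KD 72 h libraries.

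Whether the knockdown difference changed between 24 h and 72 h was tested directly. None of 8 markers was called, against 0.200% of the 59410 entries. Voom on the recovered reads called 0 as well. Without adjustment 2 markers passed, Pdgfrb and Cd34 (1.51, SE 0.63, adjusted p = 0.34), as did 6978 of all entries. For Ncam1 the change was 0.81 (SE 0.41, adjusted p = 0.45), and 1.45 in the larger cluster against -0.54 in the smaller.

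Dpp4 and Pi16, the markers of interstitial progenitors, were almost absent. Dpp4 (NM_010074, chr2:62330073-62412231, minus strand) encodes a serine peptidase of the cell surface, and 9 reads fell on it in all libraries together: 2 in KD 24 h, 4 in NC 24 h, 0 in KD 72 h and 3 in NC 72 h. The 0 in KD 72 h allows a level of up to 0.0252 RPKM, the worth of 3 reads over the group. Pi16 (NM_023734, chr17:29317680-29330593, plus strand), a peptidase inhibitor, had 18 reads, of which 1 fell in KD 24 h, 3 in NC 24 h, 4 in KD 72 h and 10 in NC 72 h. In exact permutation tests, adjusted over 7 comparisons of low markers, neither gene differed between groups, with adjusted p-values of 0.8 or more, and at these counts a difference was not detectable. The highest Pi16 value was 0.766 RPKM in NC 72 h replicate 1, from 5 reads.

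Other genes listed for the interstitial progenitor state were followed beside this pair. Of 11 genes, 4 could be tested at 24 h and 5 at 72 h. Fbn1 (fibrillin) was called lower at 24 h (-0.78, SE 0.16, adjusted p = 0.0047) and Sema3c higher at 72 h (0.66, SE 0.16, adjusted p = 0.0083), and 0 were called over time in controls. Over all entries 11.6% were called lower at 24 h and 10.3% higher at 72 h. The summed level of this list, 88.8 to 136 RPKM in NC 72 h, was mostly Anxa3, at a mean of 83.3 RPKM.

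The committed preadipocyte list had 7 tested genes. Over all entries 11.6% were called lower at 24 h and 12.0% at 72 h. At 24 h 2 were called lower, Col15a1 (-0.57, adjusted p = 0.015) and Ggt5 (-0.88, adjusted p = 0.017). At 72 h 4 were called lower, Ggt5 (-1.28, adjusted p = 5.2e-04), Lpl (-0.48, adjusted p = 0.017), Col15a1 and Sparcl1, and without scaling only Ggt5 was. At both times 0 genes of this list were called higher. Of 6 tested genes of the CD142-positive regulatory stroma, F3 (CD142 itself) was called lower at 24 h (-0.80, SE 0.18, adjusted p = 0.0072). Gdf10 was called higher at both times (1.27 and 2.86, adjusted p = 0.0087 and 7.7e-04). It averaged 3.05 RPKM in KD 72 h and only 0.43 in NC 72 h. At 72 h it may thus have passed the read filter mainly through the KD libraries, where it was high. Over all entries 11.1% were called higher at 24 h and 10.3% at 72 h. Abcg1, a cholesterol transporter, was called higher at 72 h (1.91, SE 0.40, adjusted p = 0.0041). At 72 h F3 was called lower as well (-0.65, adjusted p = 0.048), and this call was lost without scaling.

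Among 9 tested further mesenchymal surface genes, 4 were called higher and 1 lower at 72 h, beside Cd34 and Pdgfrb. Over all entries 10.3% were called higher and 12.0% lower. Alcam rose by 0.91 (SE 0.20, adjusted p = 0.0058) and Vcam1 was lower at -0.73 (SE 0.13, adjusted p = 0.0013). At 24 h only Cd44 was called, higher by 0.59 (SE 0.16, adjusted p = 0.018). The other stromal transcription factors called were all higher in KD, 3 of 8 tested at 24 h and 3 of 9 at 72 h. Over all entries 11.1% and 10.3% were called higher. Zfp423 was called lower at 72 h and was not called at 24 h. The factors not called at 24 h went both ways, from -1.12 (Meox2) to 0.72 (Osr1). Klf4 was higher by 2.09 (SE 0.40, adjusted p = 0.0028) at 24 h and 1.59 (SE 0.20, adjusted p = 1.1e-04) at 72 h, Twist1 by 0.76 (adjusted p = 0.012) at 24 h and Twist2 by 0.79 (adjusted p = 0.0017) at 72 h. Zfp521, a paralogue that counteracts Zfp423 in fat commitment, was too low to test at 24 h and had -0.82 at 72 h (adjusted p = 0.19).

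Beside these values, 4 of 7 tested adipocyte markers were called lower in KD at each time and 0 higher. The share called lower over all entries was 11.6% at 24 h and 12.0% at 72 h. The markers called at 24 h were Adipoq, Pparg, Cebpa and Ucp1, and at 72 h Adipoq, Fabp4, Cebpa and Ucp1. Cidec, a lipid droplet protein, was not called at 72 h (0.11, adjusted p = 0.56), and without scaling it was called higher (0.36, adjusted p = 0.038), while 2 markers were called lower. Ucp1, the uncoupling protein of thermogenic fat cells, was lower by -2.37 (SE 0.21, adjusted p = 8.2e-06) at 72 h. Over time in controls Ucp1 rose by 2.49 (SE 0.24, adjusted p = 3.6e-05) and Adipoq was lower at -0.43 (SE 0.05, adjusted p = 1.4e-04). Of the mesothelial markers, Krt19 was higher in KD at 72 h by 2.54 (SE 0.16, adjusted p = 5.7e-07), while Wt1, the other one tested, had -1.50 (SE 0.58, adjusted p = 0.079) and Upk3b was at 0 in all libraries. The list summed to 119 to 173 RPKM in KD 72 h against 19 to 37.3 in NC 72 h, and most of this sum was Krt19. Of the macrophage markers, Csf1r was called higher in KD at both times (1.22 and 1.23, adjusted p = 0.0061 and 0.0031) and Lyz2 lower at 72 h (-3.68, adjusted p = 6.6e-04), and the list summed to 6.84 to 11.5 RPKM in KD 72 h and 6.95 to 28 in NC 72 h. What part these lists have in the values of Cd34, Pdgfrb and Zfp423 was not tested.

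**Figure D4:**
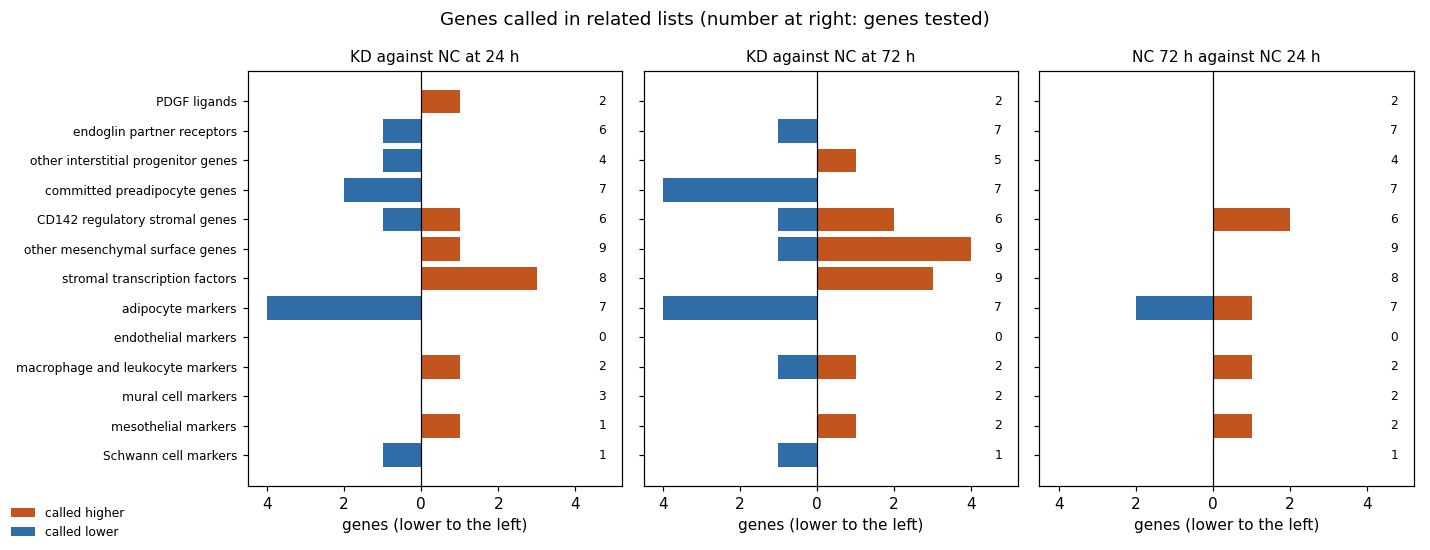
Number of genes called higher (right) or lower (left) in each related list, in 3 comparisons, with the number of genes tested at the right edge. At 72 h the stromal transcription factors have 3 called higher and 0 lower, and the committed preadipocyte genes 0 called higher and 4 lower of 7 tested.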

How the data were processed

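RNA of 24 libraries of differentiating mouse brite adipocytes (4 groups of 6, by sample title) was measured by 3′ end sequencing with sample barcodes. The authors used the Genomatix suite for mapping, its version and build not given in the sources used here, and deposited RPKM for 168326 overlapping transcript entries (RefSeq, Ensembl and GenBank). Strand handling is not given in the sources used here, so antisense genes overlapping Pdgfra, Cd34, Ncam1, Dpp4 and Pi16 can share reads. The study's figure legends call the replicates biological, and whether they were separate cultures or animals is not given in the sources used here, so p-values measure only the spread between these samples, which may be technical.

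Whole reads were recovered from the steps of the deposited RPKM. Of low values 95.1% to 95.6% per library were whole to within 0.1 read, and on 4000 simulated entries 100% of those recovered were right. Statements on reads cover counting error only. NC 72 h replicates 2 and 3 differed by 0.348 of counting noise (next of 276 pairs 2.08) and entered as their mean. In NC 72 h replicate 6 most recovered numbers were even, so its reads may be counted 2-fold, which leaves RPKM as it is.

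Entries were kept if the number of samples with the equivalent of 10 reads was no lower than the size of the smaller group, and if they had 15 reads over all. They were scaled per comparison (trimmed mean of log ratios, 30% and 5%) and fitted as log2(RPKM + 0.1) with limma 3.58.1 in R 4.3.3 (lmFit, eBayes with trend), with two-sided Benjamini-Hochberg adjusted p-values. This scale understates changes of low genes. On simulated data at 24 h, 9.0% of entries changed 1.5-fold, 56.7% of those changed 2-fold and 100% of those changed 4-fold were recovered. At 72 h these shares were 1.5%, 73.1% and 100%. The simulation changed far fewer entries than were called in the data (11822 at 24 h and 12163 at 72 h), which makes its adjustment stricter. The shares therefore do not give the part of 1.5-fold changes missed in the data, which was not tested. Markers below the filter were compared by exact permutation of mean RPKM (SciPy, two-sided). Same-numbered replicates did not deviate together (mean r -0.08 at 24 h, 0.02 at 72 h), so the fit has no replicate block.

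All 10 markers are named. From other lists at most the 2 genes with the smallest p-values per comparison are named, with exceptions where a count of calls was 5 or less or a level was checked, chosen after their values were seen. The markers and lists were chosen with earlier results of these data known. 1 cell type marker is not reported here. Positions are from GENCODE M21 (GRCm38).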

Additional observations from a re-analysis of the deposited data

Results flagged for a closer look

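Among the 40 groups of marker values examined, 4 held a sample that stood apart from the rest of its group by Dixon's criterion, which chance alone gives in about 1 of 20 groups. Ncam1 in NC 24 h replicate 5 was the lowest of its group at 10.8 RPKM, with the next library at 12.4 RPKM, and the group still did not overlap KD 24 h. The other such values rest on 1 or 2 reads: Dpp4 at 0.0902 RPKM and Pi16 at 0.106 RPKM in KD 24 h replicate 2, where the rest of the group was at 0, and Pi16 at 0.267 RPKM in NC 24 h replicate 3, where the next was 0.0821 RPKM.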

How the results depend on the processing

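Of 796 recomputed marker differences, 736 kept their direction and their side of the threshold, 18 lost a call, 10 gained one and 32 changed sign. Fits within a cluster are among these and are descriptive, since the clusters were drawn from the same libraries. Ncam1 at 24 h was called in every alternative except the smaller cluster (-0.59), and Ncam1 and Thy1 over time in all. Cd34 at 72 h missed only in the smaller cluster (1.52), Pdgfrb at 72 h there and with the replicate block. Replicate numbers did not pair the libraries; with the replicate block 1 marker was called at 72 h in place of 3 (Pdgfrb 0.57, adjusted p = 0.058; Zfp423 -0.72, adjusted p = 0.14), and entries called fell to 2898 over time and 28 for the change between times. Markers called at 24 h were 2 in 1 fit over all groups, 0 in the smaller cluster and 1 to 3 without single libraries (3 without KD 24 h replicate 4); at 72 h they were 2 to 4, over time 2 to 2 and for the change between times 0 to 0 (1 in the larger cluster).

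Signs reversed as follows. In the smaller cluster, Pdgfrb (-0.08) and Thy1 (-0.21) at 24 h, Pdgfra (0.17) at 72 h, Ly6a over time (0.00), and for the change between times Pdgfra (0.24) and Ncam1 (-0.54). In the larger cluster, Ly6a (-0.04), Thy1 (0.19) and Ncam1 (0.22) at 72 h and Zfp423 between times (0.07). On the deposited scale, Thy1 (0.21) and Ncam1 (0.03) at 72 h, and between times Pdgfra (0.13), Thy1 (0.04) and Zfp423 (0.09). With the agreeing libraries separate, Ly6a over time (0.02), and in its other entry Zfp423 between times (0.56). Without single libraries, Thy1 ranged from -0.15 to 0.06 and Ncam1 from -0.40 to 0.01 at 72 h, Ly6a over time from -0.25 to 0.13, and between times Pdgfra from -0.18 to 0.11 and Zfp423 from -0.21 to 0.08.

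Entries called were, at 24 h, 72 h, over time and between times, 3662, 3552, 1411 and 51 for RefSeq entries and 2613, 2811, 1072 and 45 with 1 entry per gene, since fewer were tested, and 1562, 5760, 1745 and 1834 in the smaller cluster. Between times they were also 774 on the deposited scale, 244 with pseudocount 1, 182 with the agreeing libraries separate and 860 in the larger cluster. Without single libraries they ranged from 9062 to 14168, 9746 to 12059, 3683 to 4705 and 53 to 175. The causes were not tested. Depth limits Cd34, Eng, Zfp423, Dpp4 and Pi16.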
